A study of Mus musculus with 20 samples.

Results

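A set of genes that report on and restrain signaling through the kinase ERK was followed across mouse melanomas with and without the stress kinase p38α. The set held the phosphatase genes Dusp6, Dusp4 and Dusp5, the receptor signaling inhibitors Spry1, Spry2, Spry4 and Spred1, and the transcription factor genes Etv1, Etv4 and Etv5. The members were listed by name, with earlier results of these data known. All 10 were found among the 19504 named genes of the array, each with 1 row. Expression was measured on 20 arrays as log2 values from RMA. The mice called B;p38α were Tyr::CreERT2;BrafCA/CA;p38αlox/lox, and those called B, in which Mapk14 is not floxed, were Tyr::CreERT2;BrafCA/CA. In both, the Cre recombinase is driven by the tyrosinase promoter, so recombination is aimed at melanocytes, where it turns on the BRAF V600E kinase and, in B;p38α mice alone, deletes Mapk14, the gene of p38α. All pups received 4-hydroxytamoxifen on the skin (5 mg/ml) on postnatal days 2.5 and 3.5 and 1 UVB dose of 6.24 kJ/m2 on day 3.5, and tumors were taken at their endpoint size. RNA came from CD45+ cells, labeled immune (3 B;p38α and 3 B arrays), from CD45- cells, labeled tumor and stroma (3 and 3), and from complete, undissociated tumors (3 B;p38α and 5 B arrays). The labels call the arrays of a group biological replicates without saying that each came from a separate animal, so the p-values rest on the spread among these arrays, which may be technical.

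ERK is the last kinase of the cascade that runs from receptor tyrosine kinases through RAS, RAF and MEK, and in this model the cascade is driven at the level of RAF. Active ERK switches on its own inhibitors within the same cell. DUSP phosphatases remove the activating phosphates from ERK, Sprouty and SPRED proteins block the path from receptors to RAF, and the ETS factors ETV1, ETV4 and ETV5 carry the signal to further genes. Transcripts of these genes are widely used to read ERK output in BRAF-mutant melanoma. The kinase p38α belongs to a parallel stress pathway.

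Mapk14, the targeted gene, was lower in B;p38α samples in each compartment without passing the test. Its mean level was 9.79 in B;p38α and 10.06 in B complete tumors (difference -0.27, two-sided exact permutation p = 0.0714, where 0.0357 is the smallest possible). In CD45+ cells the difference was -0.18 (exact permutation p = 0.3) and in CD45- cells -0.16 (exact permutation p = 0.4), with 0.1 the smallest possible in each. The sources used here do not say which exons the probes of Mapk14 cover, so its level does not check the labels. The 6 measured leukocyte genes averaged between 10.53 and 11.26 in CD45+ arrays and between 6.11 and 9.18 in CD45- arrays, with the B;p38α CD45- arrays lowest (6.11 to 8.30). The 7 melanocyte markers averaged 6.02 to 6.21 in B;p38α and 5.87 to 6.98 in B CD45+ arrays, 5.87 to 6.204 in B;p38α and 6.04 to 7.24 in B CD45- arrays, and 6.44 to 6.69 in B;p38α and 6.15 to 8.37 in B complete tumors. In each compartment 6 of the 7 had lower means in B;p38α samples, with median differences of -0.35, -0.67 and -0.49 in the same order, and 0 passed. Sox10, a neural crest factor, was the exception in each. Its group means ran from 9.87 to 11.40. Those of the pigment enzyme gene Tyr were at 4.69 or less in all 6 groups, a level that is not compared with that of Sox10. Skeletal muscle genes averaged between 5.83 and 10.99 in complete tumors and no more than 5.90 in sorted cells. The highest correlation across genes between arrays of a group, r = 0.991, was that of B;p38α CD45+ replicates 1 and 2, and B CD45- replicate 1 had the narrowest spread of values (interquartile range 2.95, against 3.40 to 3.89).

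Levels of different genes are not set against each other, since probe sets differ in brightness. Within each gene, the range over the 20 arrays was narrowest for Spred1 (0.76 log2 units) and Dusp6 (0.95) and widest for Dusp4 (2.58). Averaged over both genotypes, 7 of the 10 members had their lowest compartment mean in complete tumors. The other 3, Dusp6, Spry2 and Spred1, had it in CD45+ cells. The plot of the members by array shows the pattern on which the comparisons turn: members passed the test between compartments and not between genotypes, and Dusp5 stood highest in CD45+ cells.

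**Figure D1:**
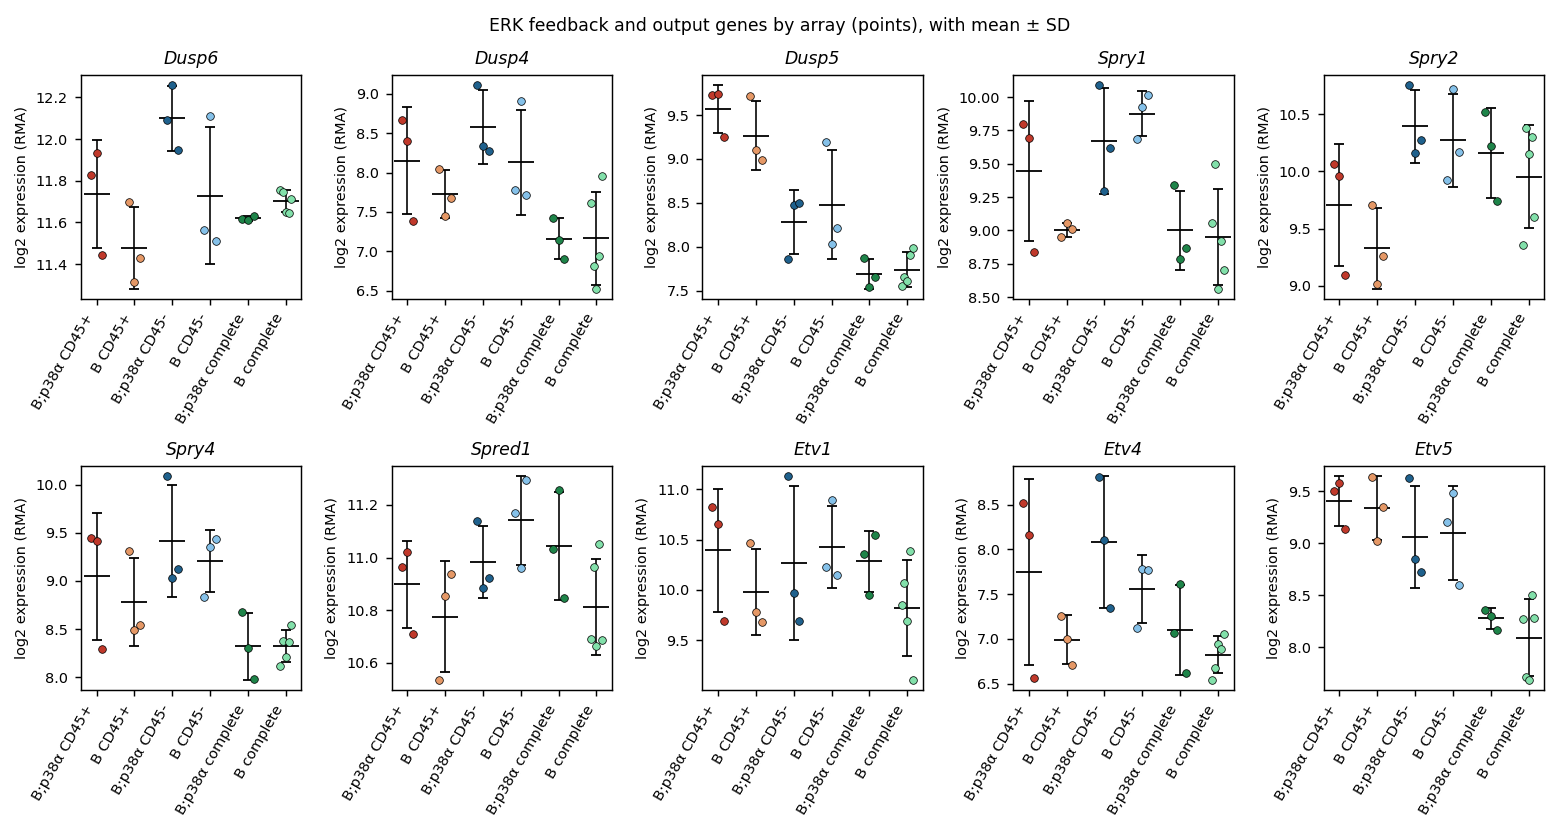
Log2 expression (RMA, vertical axis, scaled separately for each gene and not starting at 0) of the 10 genes in each of the 6 groups, with points for arrays and bars for mean ± SD. Dusp5 lay between 8.99 and 9.74 in CD45+ arrays and between 7.54 and 7.99 in complete tumors, and B;p38α and B arrays overlapped in every panel but that of Dusp6 in complete tumors.

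The first question was how the fractions of the tumor differ. CD45- cells, labeled tumor and stroma, were compared with complete tumors over both genotypes. In CD45- cells 5 of the 10 genes rose, namely Dusp4, Dusp5, Spry1, Spry4 and Etv5, and 0 fell (limma, p adjusted after Benjamini and Hochberg over all genes, threshold 0.05). Over all 19504 genes, 6.24% rose and 6.47% fell. At an unadjusted p under 0.05, 7 members were higher and 0 lower, against 15.1% and 13.7% of all genes. The difference was positive for all 10 members, against 54.9% of all genes, and the median over the members was 0.73, against 0.04 over all genes. In bulk RNA, fewer cells of a type and less RNA per cell cannot be told apart.

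Among the phosphatases, Dusp4, which acts on ERK in the nucleus and also on JNK and p38, had the largest difference. It had log2 levels of 9.11, 8.34 and 8.27 in B;p38α and 7.78, 8.90 and 7.72 in B CD45- cells, against 7.43, 7.14 and 6.91 in B;p38α and 7.61, 6.81, 6.53, 6.95 and 7.95 in B complete tumors. Of the complete tumors, only B replicate 5 reached the range of the CD45- arrays. The difference was 1.19 log2 units, 2.28-fold (SE 0.27, limma adjusted p = 0.00918). Dusp5, the nuclear phosphatase devoted to ERK, was at 7.86, 8.47 and 8.50 in B;p38α and 9.19, 8.03 and 8.21 in B CD45- cells, against 7.87, 7.54 and 7.65 in B;p38α and 7.55, 7.65, 7.60, 7.91 and 7.99 in B complete tumors. Only B;p38α CD45- replicate 1 fell within the range of the complete tumors. Dusp5 rose by 0.66 (SE 0.19, limma adjusted p = 0.0272), but this call was lost without B;p38α complete replicate 2 (0.63, adjusted p = 0.0695) or 3 (0.65, 0.0604), B CD45- replicate 1 (0.49, 0.0583), or B;p38α CD45- replicate 2 (0.61, 0.0680) or 3 (0.61, 0.0642). Dusp6, the cytoplasmic phosphatase of ERK and the member most used as a readout, was at 12.09, 12.26 and 11.95 in B;p38α and 11.57, 12.11 and 11.51 in B CD45- cells, against 11.62, 11.61 and 11.63 in B;p38α and 11.76, 11.75, 11.65, 11.64 and 11.71 in B complete tumors. Its difference of 0.25 (SE 0.12) did not pass (limma adjusted p = 0.167), and 2 of 6 CD45- arrays were below every complete tumor.

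Of the Sprouty family, whose proteins block receptor signaling on its way to RAF, Spry4 and Spry1 rose in CD45- cells. Spry4 stood at 10.09, 9.03 and 9.12 in B;p38α and 8.84, 9.35 and 9.44 in B CD45- cells, against 8.67, 8.30 and 7.98 in B;p38α and 8.12, 8.37, 8.21, 8.37 and 8.54 in B complete tumors. The 6 CD45- arrays lay above all 8 complete tumors, which held in this direction for 1.46% of all genes. Spry4 differed by 0.99, 1.99-fold (SE 0.22, limma adjusted p = 0.00837). Spry1 ranged from 9.30 to 10.09 in CD45- cells and from 8.57 to 9.50 in complete tumors, and rose by 0.80 (SE 0.18, limma adjusted p = 0.00963). The means of Spry2 were 10.33 in CD45- cells and 10.06 in complete tumors, a difference of 0.28 (SE 0.22, limma adjusted p = 0.422). For Spred1, which recruits the RAS inhibitor neurofibromin to the membrane, they were 11.06 and 10.93, a difference of 0.13 with a 95% interval from -0.11 to 0.38 (limma adjusted p = 0.470).

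Of the 3 ETS factors, Etv5 passed in CD45- cells and the other two did not. Etv5 stood at 9.63, 8.84 and 8.72 in B;p38α and 9.20, 9.48 and 8.60 in B CD45- cells, against 8.36, 8.30 and 8.17 in B;p38α and 8.27, 7.72, 7.69, 8.50 and 8.28 in B complete tumors. Its groups did not overlap, and it rose by 0.90, 1.86-fold (SE 0.19, limma adjusted p = 0.00595). Etv4 was at 8.81, 8.11 and 7.34 in B;p38α and 7.12, 7.78 and 7.77 in B CD45- cells, against 7.06, 7.62 and 6.62 in B;p38α and 6.54, 6.68, 6.94, 6.89 and 7.05 in B complete tumors. The arrays overlapped through B;p38α complete replicate 2, and the difference of 0.86 (SE 0.28) fell just short of the threshold (limma adjusted p = 0.0529). It passed without B;p38α CD45+ replicate 1 (0.86, adjusted p = 0.0436) or 3 (0.86, 0.0164), whose spread enters the fit, B CD45- replicate 1 (0.97, 0.0459) or B;p38α CD45- replicate 3 (1.05, 0.0271). Etv1 had means of 10.34 in CD45- cells and 10.05 in complete tumors, a difference of 0.29 (SE 0.26, limma adjusted p = 0.485).

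CD45+ cells were set against the same complete tumors, so this comparison shares its controls with the preceding one. In CD45+ cells 3 of the 10 genes rose, namely Dusp5, Etv5 and Dusp4, and 0 fell, while 12.9% of all genes rose and 12.9% fell. At an unadjusted p under 0.05, 4 members were higher and 1 lower, against 17.6% and 18.8% of all genes. A positive difference was found for 7 of the 10, with a median of 0.33, against 49.6% of all genes.

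Dusp5 had the largest difference of any member between compartments. It was at 9.73, 9.74 and 9.25 in B;p38α and 9.72, 9.10 and 8.99 in B CD45+ cells, against the complete tumors' 7.54 to 7.99. The lowest CD45+ array, at 8.99, lay above the highest complete tumor, at 7.99. The difference was 1.70, or 3.26-fold (SE 0.19, limma adjusted p = 5.11e-06), and 6% of all genes were higher without overlap in this comparison. Etv5 stood at 9.50, 9.58 and 9.14 in B;p38α and 9.64, 9.02 and 9.35 in B CD45+ cells, also above all complete tumors, and rose by 1.19, 2.28-fold (SE 0.19, limma adjusted p = 0.000183).

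Dusp4 was at 8.67, 8.40 and 7.38 in B;p38α and 8.05, 7.45 and 7.68 in B CD45+ cells and overlapped with complete tumors. Its difference of 0.77 (SE 0.27, limma adjusted p = 0.0430) lost its call in 9 of 20 fits that left out 1 array. These were the fits without B complete replicate 2 (0.73, adjusted p = 0.0665), 3 (0.69, 0.0718) or 4 (0.75, 0.0661), B;p38α complete replicate 2 (0.77, 0.0762) or 3 (0.71, 0.0982), B CD45+ replicate 1 (0.69, 0.0963) or 3 (0.78, 0.0706), and B;p38α CD45+ replicate 1 (0.64, 0.117) or 2 (0.71, 0.0948). Spry4 had 0.60 (SE 0.22, limma adjusted p = 0.0566), and Etv4 0.41 (SE 0.28, 0.322). Without B;p38α CD45+ replicate 3, an array in which both were low, Spry4 had 0.79 (adjusted p = 0.0107) and Etv4 0.71 (0.0373), which brings the count to 5 of 10. Spry4 also passed without B;p38α complete replicate 1 (0.68, 0.0431), B CD45- replicate 1 (0.60, 0.0480) or B;p38α CD45- replicate 1 (0.60, 0.0364). Spry2 had the most negative difference, -0.54 (SE 0.22, limma adjusted p = 0.0790), which passed without B complete replicate 1 (-0.62, 0.0421). The remaining members, Spry1 (0.25), Etv1 (0.13), Dusp6 (-0.05) and Spred1 (-0.09), had limma adjusted p from 0.356 to 0.795.

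Both sorted fractions, each from dissociated tumors, were also compared directly. Immediate early and dissociation genes still differed between them, since 9 of 16 rose in CD45+ relative to CD45- cells (median 0.80) and 0 fell. The part of handling in this comparison was not tested. Dusp5 rose and Spry2 fell in CD45+ relative to CD45- cells, and the other 8 members did not pass, while 7.79% of all genes rose and 4.37% fell. Before adjustment 1 member was higher and 2 were lower, against 11.9% and 12.4% of all genes. Dusp5 averaged 9.42 in CD45+ and 8.38 in CD45- cells, a difference of 1.04, 2.06-fold (SE 0.23, limma adjusted p = 0.0126), and it kept its call in 12 of 12 fits without 1 array. The fractions overlapped through B CD45- replicate 1, at 9.19. Spry2 was at 10.07, 9.96 and 9.09 in B;p38α and 9.71, 9.01 and 9.26 in B CD45+ cells, against 10.76, 10.16 and 10.27 in B;p38α and 9.93, 10.72 and 10.17 in B CD45- cells. Only B;p38α CD45+ replicates 1 and 2 reached the range of the CD45- arrays. The difference was -0.82 (SE 0.22, limma adjusted p = 0.0336). This call was lost without B CD45+ replicate 2 (-0.74, adjusted p = 0.0840) or 3 (-0.80, 0.0787), B;p38α CD45+ replicate 3 (-0.67, 0.0708), B CD45- replicate 2 (-0.71, 0.0759) or 3 (-0.84, 0.0529), and B;p38α CD45- replicate 1 (-0.73, 0.0781) or 3 (-0.85, 0.0542).

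Of the other 8 members, 7 had lower means in CD45+ cells, among them Spry1 (-0.55, limma adjusted p = 0.0943), Etv4 (-0.45, 0.492), Dusp4 (-0.42, 0.433), Spry4 (-0.40, 0.434) and Dusp6 (-0.31, 0.251), and Etv5 was the exception (0.29, 0.461). Of all genes, 38.6% had a positive difference. The arrays of the 2 fractions overlapped for all 10 members, while 5.78% of all genes were higher and 1.62% lower without overlap. Of the 7 melanocyte markers 4 had higher means in CD45+ than in CD45- cells (median 0.04), and Mitf passed as higher (0.78) and Sox10 as lower (-0.95). The part of tumor RNA in the members' levels in CD45+ cells was not tested.

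Markers of other cells moved with these comparisons as well. All 6 leukocyte, 5 macrophage and 4 T cell markers rose in CD45+ cells relative to CD45- cells and to complete tumors. The median over the leukocyte list was 2.68 relative to CD45- cells and 1.68 relative to complete tumors. Of the 5 endothelial markers, 3 rose in CD45+ relative to CD45- cells (median 1.18) and the same 3, Pecam1, Cdh5 and Kdr, rose relative to complete tumors (median 1.11), the direction of Dusp5. The endothelial list averaged 9.08 to 10.39 in B;p38α and 10.30 to 10.43 in B CD45+ arrays, 7.94 to 8.80 in B;p38α and 7.76 to 9.85 in B CD45- arrays, and 8.59 to 9.23 in B;p38α and 8.94 to 10.07 in B complete tumors. In CD45- relative to complete tumors 4 of 6 leukocyte markers (median -0.98) and 5 of 5 macrophage markers (median -1.44) fell, and 0 of 5 endothelial and 2 of 5 fibroblast markers rose. Of the 7 melanocyte markers, 2 had higher means in CD45- cells than in complete tumors (median -0.43), and 0 rose and 1 fell. The part of all these cells in the differences of Dusp5 and the other members was not tested.

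**Figure D2:**
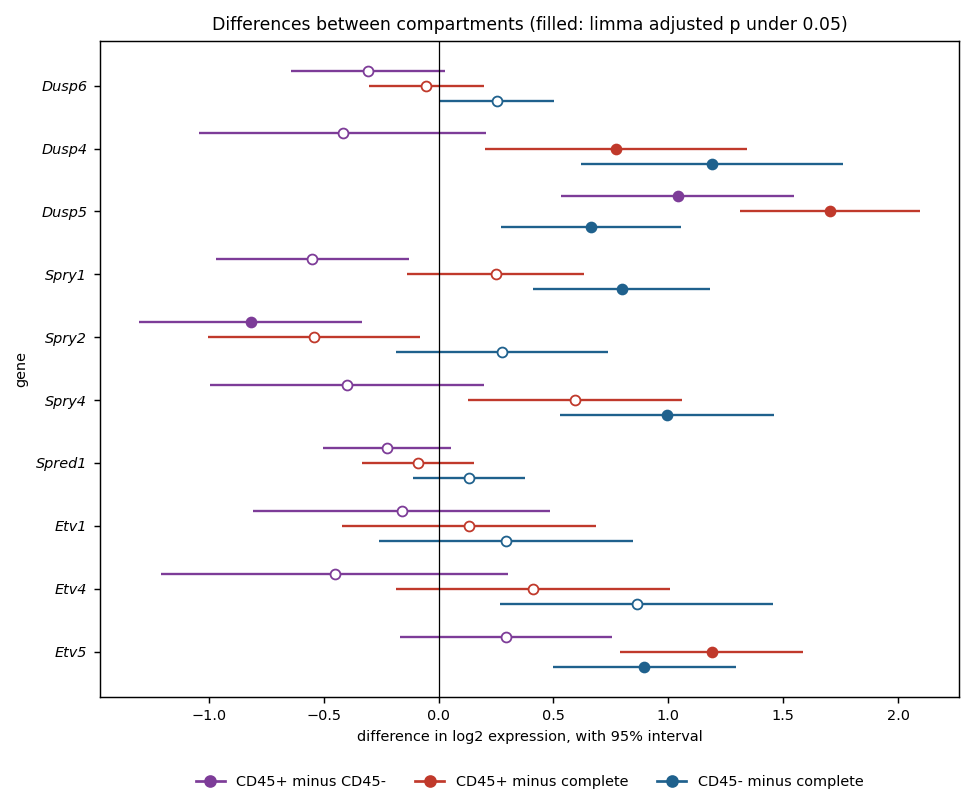
Differences in log2 expression between compartments (horizontal axis, with 95% intervals) for each of the 10 genes, with CD45+ minus CD45-, CD45+ minus complete and CD45- minus complete from top to bottom and filled points past a limma adjusted p of 0.05. Dusp5 lies right of 0 in all 3 comparisons (1.04, 1.70 and 0.66), whereas Spry1 and Spry4 have larger differences from complete tumors in CD45- cells (0.80 and 0.99) than in CD45+ cells (0.25 and 0.60).

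Promoters were examined for the member with the largest compartment difference, Dusp5, and for Dusp6, which passed in no comparison. RefSeq promoter sequences of GRCm38.p6, 250 bases before to 50 after the annotated start, were matched for 7 of the 10 members. The search on both strands covered the ETS motif CCGGAAG, the AP-1 motif TGANTCA, the cyclic AMP response motif TGACGTCA and the CArG box, which serum response factor binds at immediate early genes. Matches to them were found in 8.86%, 7.81%, 1.79% and 1.63% of 32851 promoters, in that order. In the members' promoters the only matches were CArG boxes of Dusp5. The Dusp5 promoter, chr19:53528895-53529194 on the plus strand, holds a pair of adjacent CArG boxes, shown in capitals, that begin 82 and 72 bases before the start. The Dusp6 promoter, chr10:99262981-99263280 on the plus strand, has no match in this window. A match is a description of the letters and not a measured site.
Dusp5 promoter: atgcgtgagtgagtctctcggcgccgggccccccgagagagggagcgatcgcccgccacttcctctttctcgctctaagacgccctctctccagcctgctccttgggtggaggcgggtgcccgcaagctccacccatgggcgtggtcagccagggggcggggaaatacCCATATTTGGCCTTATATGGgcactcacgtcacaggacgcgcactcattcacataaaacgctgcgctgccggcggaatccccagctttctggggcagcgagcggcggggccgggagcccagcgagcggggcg
Dusp6 promoter: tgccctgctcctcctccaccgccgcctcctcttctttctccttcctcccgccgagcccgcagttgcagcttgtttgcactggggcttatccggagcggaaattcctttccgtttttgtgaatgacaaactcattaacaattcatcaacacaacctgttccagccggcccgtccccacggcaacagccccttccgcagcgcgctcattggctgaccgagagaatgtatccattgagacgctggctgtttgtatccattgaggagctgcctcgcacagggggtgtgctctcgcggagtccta

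Immediate early and dissociation genes, which respond within minutes to stress and tissue handling, moved with the compartments. Of the 16 measured, 14 rose in CD45- cells and 16 in CD45+ cells relative to complete tumors, with median differences of 1.18 and 2.03, and 9 rose in CD45+ relative to CD45- cells (median 0.80). The AP-1 gene Fosb differed by 2.15 and 2.93 from complete tumors in CD45- and CD45+ cells, and the heat shock gene Hspa1b by 1.85 and 3.08. Averaged over the list, levels ran from 9.49 to 11.29 in the 12 sorted arrays and from 8.35 to 9.46 in the 8 complete tumors, without overlap. Complete tumors were not dissociated, so dissociation and selection cannot be told apart in the comparisons with them. Within groups, after each group's mean was subtracted, members and this list were weakly related over the 20 arrays, with Pearson r from -0.27 for Etv4 to 0.29 for Etv5. The part of dissociation in the members' differences was not tested, nor was that of the skeletal muscle RNA in complete tumors.

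**Figure D3:**
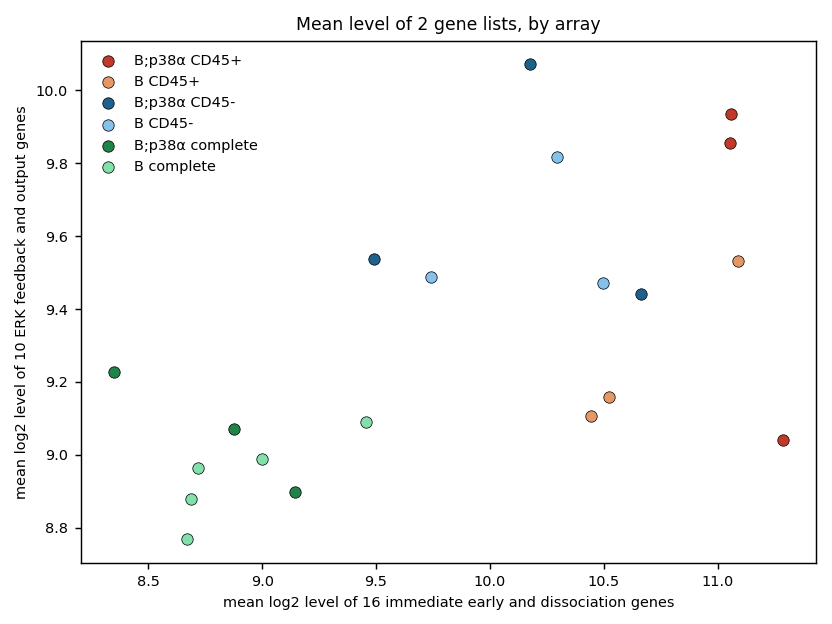
Mean log2 level of the 10 ERK feedback and output genes (vertical axis) against that of 16 immediate early and dissociation genes (horizontal axis) for each of the 20 arrays, colored by group. The 8 complete tumors lie at the left with immediate early levels up to 9.46, and B;p38α CD45+ replicate 3 has the highest immediate early level (11.29) with a member mean of 9.04, close to those of complete tumors.

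Other genes of the pathway are counted beside the shares of all genes given above, 6.24% higher and 6.47% lower in CD45- relative to complete tumors, 12.9% in each direction in CD45+ relative to complete tumors, and 7.79% higher and 4.37% lower in CD45+ relative to CD45- cells. Most counts are of a few genes, and those near these shares are no result about a list. Of 8 further feedback inhibitors, 3 rose in CD45- relative to complete tumors, namely Errfi1, which inhibits the EGF receptor (1.03), the Spred1 relative Spred2 (0.91) and the ERK phosphatase gene Dusp7 (0.63), and 0 fell. In CD45+ cells the same 3 rose relative to complete tumors (0.98, 0.62 and 0.48), and Spry3 fell by 0.84. Between the sorted fractions 0 of 8 passed. A further 5 genes of the DUSP family encode phosphatases directed mainly at p38 and JNK. Of these, Dusp2 (1.53) and Dusp1 (0.83) rose in CD45+ relative to CD45- cells, the direction of Dusp5. Relative to complete tumors 3 of these 5 rose in CD45- cells and 3 in CD45+ cells, and 0 fell in either. Dusp1 rose by 1.74 in CD45- and 2.57 in CD45+ cells, more than any member.

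Among 11 other ERK output genes, 3 rose in CD45- cells relative to complete tumors (Myc 1.25, Egr3 1.00 and Phlda1 0.68) and 3 in CD45+ cells (Myc 1.60, Ier3 1.49 and Egr3 0.81), and 0 fell in either. Phlda1 fell by 0.82 in CD45+ relative to CD45- cells. The cascade from RAS to ERK and its links to receptors had 13 measured components. Of these, 3 rose in CD45- relative to complete tumors (Mras 0.58, Grb2 0.54 and Map2k2 0.38) and 0 fell. In CD45+ cells Grb2 (1.33) and Sos1 (0.43) rose and the MEK gene Map2k1 and the phosphatase gene Ptpn11 fell by 0.60 each. Of 7 RAS GTPase-activating proteins, Dab2ip rose in CD45- cells (0.59), and Rasa2 and Rasa1 fell in CD45+ cells by 0.81 and 0.37. Among 11 ETS relatives, Etv6 (0.77) and Erf (0.72) rose in CD45- cells, and Ets2 (1.74), Fli1 (1.58), Etv6 (1.07) and Etv3 (1.06) rose in CD45+ cells, again relative to complete tumors.

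Upstream, 3 of 12 receptor tyrosine kinase genes rose in CD45- relative to complete tumors (Pdgfrb 0.92, Axl 0.80 and Erbb2 0.64), and in CD45+ cells Kit (2.24) and Axl (0.83) rose while Erbb3 fell by 0.57. Of 13 ligand genes, the EGF family members Ereg (1.09) and Hbegf (0.66) rose in CD45- cells. In CD45+ cells Nrg1 rose (0.86), and the growth factor genes Fgf7 and Pdgfa fell by 1.95 and 0.48.

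The study's own comparison is that of genotypes within each compartment, and 0 of the 10 genes passed it in any compartment (limma). At an unadjusted p under 0.05 the count was also 0 of 10 in each. In complete tumors 0% of all genes passed in either direction at the adjusted threshold, and 2.85% of them were higher and 3.76% lower before adjustment. Higher means in B;p38α tumors were found for 6 of the 10 members, with a median difference of 0.12, against 48.2% of all genes. Dusp6 had the narrowest values, 11.62, 11.61 and 11.63 in B;p38α and 11.76, 11.75, 11.65, 11.64 and 11.71 in B tumors. The B;p38α tumors all lay below the B tumors, as for 2.54% of all genes, while 1.92% of all genes were higher without overlap. The difference of Dusp6 was -0.08, with a 95% interval from -0.38 to 0.21 (limma adjusted p = 0.941). Its SD was 0.01 in B;p38α and 0.05 in B tumors, below the SE of 0.13. The limma fit moves each gene's variance toward that of all genes, so this interval does not rest on the spread of Dusp6 alone. Etv1 had the largest difference, at 10.36, 9.94 and 10.55 in B;p38α and 9.85, 10.06, 9.69, 10.39 and 9.11 in B tumors (0.46, SE 0.28, limma adjusted p = 0.814). The other differences lay between -0.05 for Dusp5 and 0.28 for Etv4. Macrophage, adipocyte and skeletal muscle markers had lower means in B;p38α complete tumors in 5 of 5 genes each (medians -0.66, -1.70 and -1.95). Before adjustment 5, 3 and 1 of them were lower, and 0 passed. Of the T cell markers, 2 of 4 had higher means, and of the Schwann markers 2 of 3. The Y-linked genes averaged 2.99 to 3.85 in B;p38α and 2.76 to 9.29 in B tumors. The part of cell makeup in these differences was not tested.

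In CD45+ cells all 10 members had higher means in B;p38α samples, with a median of 0.34, against 50.4% of all genes and a median of 0.00, and 0 passed. Of all genes, 0% passed, and 5.69% were higher and 5.08% lower before adjustment. Etv4 had the largest difference, at 8.52, 8.16 and 6.57 in B;p38α against 6.71 to 7.26 in B CD45+ cells (0.76, SE 0.48, 95% interval -0.37 to 1.89, limma adjusted p = 0.550). B;p38α replicates 1 and 2 lay above all B arrays and replicate 3 below them. The same split was seen in Dusp4, at 8.67, 8.40 and 7.38 in B;p38α against 8.05, 7.45 and 7.68 in B CD45+ cells (0.42, SE 0.35, limma adjusted p = 0.636). Spry1 was at 9.80, 9.69 and 8.84 in B;p38α against 8.95, 9.06 and 9.01 in B CD45+ cells (0.44, SE 0.27, limma adjusted p = 0.538). The groups overlapped for every member, whereas 9.16% of all genes were higher and 7.35% lower without overlap.

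Leaving out B;p38α CD45+ replicate 3 moved the difference of Etv4 to 1.35 and that of Dusp4 to 0.80, still without a pass. When replicates 1 and 2, the most alike arrays, were averaged into 1, that of Etv4 was 0.46. The 3 Y-linked genes averaged 2.75 to 3.23 in B;p38α and 4.30 to 8.67 in B CD45+ arrays, without overlap, so in these cells their level and the genotype cannot be told apart. With that level as a covariate the median over the members was 0.87, and 0 of them passed. The same arrays differed in other respects. Leukocyte genes averaged 10.55, 10.53 and 11.26 in B;p38α replicates 1 to 3 and 11.02 to 11.19 in B arrays, and fibroblast genes 12.36, 12.32 and 11.98 in B;p38α and 11.77 to 12.34 in B arrays. Endothelial markers averaged 9.08, 9.15 and 10.39 in B;p38α replicates 1 to 3 and 10.30 to 10.43 in B arrays, so that replicates 1 and 2 lay apart from the other 4 arrays, as they did for Etv4. All 5 had lower means in B;p38α samples (median -0.75), 3 of them at an unadjusted p under 0.05, and 0 passed. T cell markers averaged 6.60, 6.69 and 7.37 in B;p38α and 6.86 to 7.74 in B arrays, and all 4 had lower means in B;p38α samples (median -0.51), of which 0 passed. The difference was positive in 16 of 16 immediate early and dissociation genes (median 0.47) and in 10 of 11 other ERK output genes (Plaur 0.97, Lif 0.87), and 0 of either list passed. The part of cell makeup and handling in the members' higher means was not tested.

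**Figure D4:**
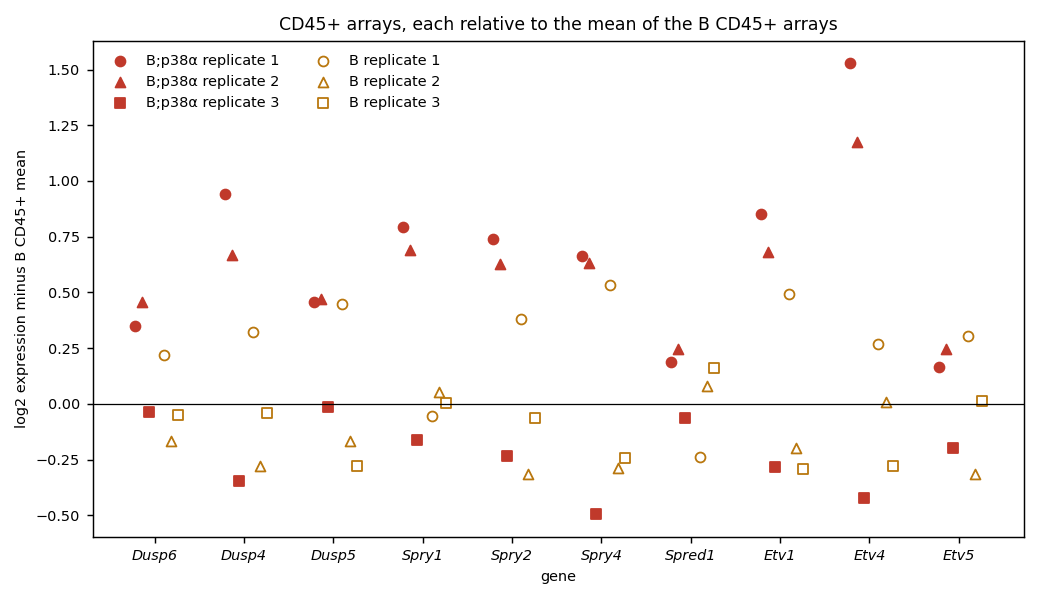
Log2 expression of the 10 genes in each CD45+ array minus the mean of the 3 B CD45+ arrays (vertical axis), with filled symbols for B;p38α and open symbols for B replicates. B;p38α replicates 1 and 2 lie above 0 for all 10 genes, and replicate 3 lies below 0 for all 10.

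In CD45- cells, which contain the recombined tumor cells, 5 of the 10 members had higher and 5 lower means in B;p38α samples, with a median of 0.05, and 55.8% of all genes were positive. The test called 0 of the 10, and 0.00513% of all genes rose and as many fell, which is 1 gene each. Before adjustment, 3.5% of all genes were higher and 3.27% lower. Dusp6 was at 12.09, 12.26 and 11.95 in B;p38α against 11.57, 12.11 and 11.51 in B CD45- cells (0.37, SE 0.24, limma adjusted p = 0.676), with B replicate 2 inside the B;p38α range. No member's groups were apart in CD45- cells, where 10.6% of all genes were higher and 5.36% lower without overlap. Etv4 was at 8.81, 8.11 and 7.34 in B;p38α against 7.12, 7.78 and 7.77 in B CD45- cells (0.53, SE 0.40, limma adjusted p = 0.687), and Dusp4 differed by 0.44 (SE 0.40, 0.719). Spry1 and Dusp5 had the lowest differences, -0.20 each (limma adjusted p = 0.786 and 0.850). The 95% intervals of all 10 members included the range from -0.20 to 0.32. Leukocyte genes were lower in these B;p38α samples (6.11 to 8.30, against 8.82 to 9.18 in B), and their part was not tested.

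When the 20 arrays were fitted together and adjusted for compartment, the 10 differences were all positive, from 0.01 for Dusp5 to 0.50 for Etv4, with a median of 0.15, and 53.1% of all genes were positive. The test called 0 of 10 members, while 0.0256% of all genes rose and 0.0564% fell. Before adjustment 1 member was higher and 0 lower, against 7.88% and 7.16% of all genes. Etv4 had the smallest limma adjusted p, 0.307 (SE 0.23), with an unadjusted p of 0.0379. Whether the genotype difference itself depended on the compartment was tested with interaction contrasts, CD45+ against CD45-, CD45+ against complete and CD45- against complete. In each, 0 of 10 members and 0% of all genes passed, and the smallest adjusted p among the members was 0.545. Before adjustment 0 of 10 members passed in any of them, against 1.04% of all genes higher and 0.913% lower in the contrast of CD45+ with CD45- cells. These shares were 4.06% and 3.16% for CD45+ cells against complete tumors and 5.78% and 3.9% for CD45- cells against complete tumors. With 3 arrays in every group but that of B complete tumors, which had 5, the intervals were wide, so similar genotype effects across compartments are not shown. The plot of genotype differences shows how far each interval extends.

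**Figure D5:**
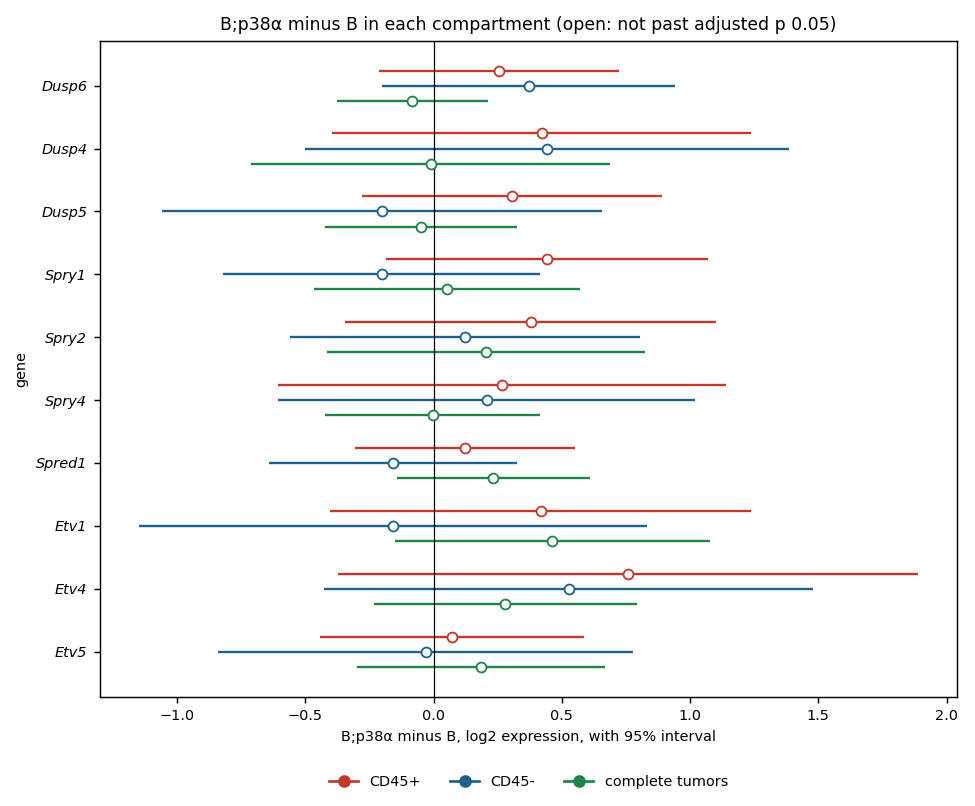
Differences between B;p38α and B in log2 expression (horizontal axis, with 95% intervals) for the 10 genes in CD45+ cells, CD45- cells and complete tumors, from top to bottom within each gene. Every interval includes 0, and the widest is that of Etv4 in CD45+ cells, from -0.37 to 1.89.

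Members were then compared with each other within groups, after each group's mean had been subtracted from its arrays. Of the 45 pairs, 38 had a positive Pearson r over the 20 arrays, with a median of 0.44, and 19 exceeded 0.5. These arrays share groups and normalization, and the same values over all gene pairs were not computed. The counts are descriptions and do not show that members moved together more than other genes. Spry4 and Etv4 were the closest pair (r = 0.82, Spearman rho 0.79), and r was 0.71 without the 2 arrays farthest from the median of Spry4. Dusp4 with Etv5 (0.76) and Spry2 with Spry4 (0.75) followed. Dusp5 stood apart, with r between -0.12 and 0.10 to each of the other 9 members. With the 6 leukocyte genes r was 0.36 for Dusp5 and negative for the other 9 members, from -0.14 for Dusp6 to -0.73 for Etv1. Over all cell type lists, r of Dusp5 ran from -0.32 for endothelial to 0.38 for neutrophil markers, and none of these values was tested.

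Outside the members, the genes whose within-group pattern was most like that of Dusp6 were Chd7 (r = 0.90), Pxdc1 (0.88), Zfp692 (0.88), Morn4 (0.88) and Frat2 (0.88), over 20 arrays. For the other members the most similar gene was Anp32b for Dusp4 (0.89), Hs3st2 for Dusp5 (0.85), Klf9 for Spry1 (0.87), Tril for Spry2 (0.90), Ssc5d for Spry4 (0.91), Pros1 for Spred1 (0.87), Prrt1 for Etv1 (0.93), Ntn1 for Etv4 (0.94) and Gfod1 for Etv5 (0.86). Each value is the highest of 19503, or for Dusp6 among the 5 highest, and is high by selection.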

How the data were processed

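The deposited table gives log2 expression values. Per the submitters' processing notes the authors made them with RMA, of unstated version. The array's genome build, and which arrays were normalized together, are not stated in the labels. Of 21244 rows, 19570 had 1 gene symbol and 1674 none. The row with the highest mean was kept for each symbol, which left out 66 rows and gave 19504 genes. Array medians lay between 6.78 and 6.98. Arrays have no read depth, and precision depends on how many there are.

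Groups came from the sample labels. Differences were fitted over all genes in R 4.3.3 with limma 3.58.1 (lmFit, then eBayes), with a Benjamini-Hochberg adjusted p under 0.05 as the threshold. Genotypes were fitted within each compartment, sorted fractions over 12 arrays, and comparisons with complete tumors over 20, as averages of both genotypes. Tests were tried on simulated data. All members were named in each comparison, and from other lists up to 4 genes past the threshold, or the 2 largest differences. The members, lists and rules were chosen with earlier results of these data known. Alternatives were a single fit of all groups, the replicate number as a block, a covariate of Y-linked genes, a filter that removed genes in the lowest 30% by mean level, repeated quantile normalization, a robust variance with a trend, and fits without each array in turn. Averaging B;p38α CD45+ replicates 1 and 2 was added after seeing the data. RefSeq sequences are those of GRCm38.p6. Figures were drawn with matplotlib 3.10.9.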

Additional observations from a re-analysis of the deposited data

How the results depend on the processing

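Over 1360 recalculations of single members, 1269 kept their direction and side of the threshold, 18 passed newly, 24 lost a call and 49 changed sign. With 3 to 5 arrays a group, precision is limited by their number. The replicate numbers that groups share in the labels did not consistently match like arrays. Same-number deviations correlated between -0.57 and 0.36. Arrays were most alike to their own number in 8 of 18 cases across compartments and 3 of 9 across genotypes. In B tumors the highest correlations crossed numbers. CD45+ replicate 1 had 0.60 with CD45- replicate 2, and CD45+ replicate 2 had 0.62 with CD45- replicate 1. Whether fractions share tumors under other numbers is not stated in the labels, and the main fits treat all arrays as independent. A block by replicate number joins B replicates 1 and 2 across these fractions, which correlated at -0.47 and -0.57. With the replicate number as a block, 0 members fell in CD45+ relative to CD45- cells (Spry2 adjusted p = 0.0794), Etv4 passed in CD45- relative to complete tumors (0.91, 0.0278), Spry4 passed in CD45+ relative to complete tumors (0.64, 0.0477), and the genotype differences in complete tumors changed sign for Dusp4 (0.18), Dusp5 (0.089), Spry1 (-0.038) and Spry4 (0.085). Over all genes the block gave 26 higher and 1 lower between genotypes in complete tumors, where 0 passed without it. It gave 386 lower in CD45+ relative to CD45- cells, against 852 without it, and 760 higher and 724 lower in CD45- relative to complete tumors, against 1218 and 1261.

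With the Y-linked covariate 0 members fell in CD45+ relative to CD45- cells (Spry2 adjusted p = 0.0653). Among genotype differences it changed the sign of Dusp4 in complete tumors (0.010), Spred1 in CD45+ cells (-0.12) and Etv5 in CD45- cells (0.0041). In CD45+ cells it gave 96 genes higher and 154 lower, where 0 passed without it, and a median of 0.87 over the members, of which 0 passed. Y-linked levels separate the genotypes there without overlap (2.75 to 3.23 in B;p38α and 4.30 to 8.67 in B arrays), so this fit does not tell the 2 apart. Repeated quantile normalization changed the sign of genotype differences for Dusp4 (0.015) and Spry4 (0.010) in complete tumors and Dusp5 over all compartments (-0.029). Etv4 passed in CD45- relative to complete tumors with dim genes left out (adjusted p = 0.0368), repeated quantile normalization (0.0403) and a trended variance (0.0467), and so did Spry4 in CD45+ relative to complete tumors (0.0395, 0.0426 and 0.0465). Averaging B;p38α CD45+ replicates 1 and 2, chosen after seeing the data, left Dusp4 short of the threshold in CD45+ relative to complete tumors (0.105) and changed the sign of Dusp5 over all compartments (-0.027).

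Without 1 array at a time, 0 to 1 members fell in CD45+ relative to CD45- cells, 4 to 6 rose in CD45- relative to complete tumors, and 2 to 5 rose and 0 to 1 fell in CD45+ relative to complete tumors. Sign changes came from Etv1 (-0.30 to 0.057) in CD45+ relative to CD45- cells and from Dusp6 (-0.11 to 0.020) in CD45+ relative to complete tumors. The genotype differences that changed sign were Dusp4 (-0.17 to 0.18), Dusp5 (-0.14 to 0.024), Spry1 (-0.12 to 0.19) and Spry4 (-0.18 to 0.17) in complete tumors, and Etv5 (-0.085 to 0.22) in CD45+ cells. They were Dusp5 (-0.42 to 0.15), Etv1 (-0.59 to 0.13), Etv5 (-0.31 to 0.16), Spry2 (-0.057 to 0.35) and Spry4 (-0.13 to 0.40) in CD45- cells, and Dusp5 (-0.043 to 0.12) over all compartments.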
